A study of Rattus norvegicus with 38 samples.

Results

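The array carried 350 rat microRNAs (miRNAs), and 58 of them had a name ending in a star, the older sign for the passenger strand of a miRNA hairpin. All 58 were taken by name, whatever their values, and 197 probes measured them, 1 to 4 for each. Livers came from male Fischer (F344) rats that arrived at 8 weeks of age, taken after 90 days on powdered diet with or without a chemical. Control animals (n = 5) ate the diet alone. The supplemented diets held 40 ppm 2-acetylaminofluorene (2-AAF, n = 5), 250 ppm Methapyrilene HCl (MP, n = 4), 1000 ppm Phenobarbital (PB, n = 3), 1250 ppm Chlorendic Acid (CA, n = 4), 1250 ppm Benzophenone (BP, n = 5), 1500 ppm Monuron (MON, n = 4), 2500 ppm Diethylthiourea (DETU, n = 4) or 12000 ppm Diethylhexylphthalate (DEHP, n = 4). Each dose was meant to be carcinogenic or the highest tolerated, per the labels, and each animal gave 1 of the 38 arrays.

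A miRNA hairpin is cut to a short duplex, and one strand of it, the main arm, is usually kept by an Argonaute protein while the other, the passenger or star arm, is mostly degraded. Both arms come from one transcript, so a change in transcription can move both, whereas a change in which strand is kept or how long it lasts can move one alone. Current databases name the arms by position, 5p or 3p, since for some hairpins the star arm is the more abundant one in a tissue.

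The sequences below are RefSeq mature miRNAs of the GRCr8 assembly, shown because the results turn on these hairpins. Capitals mark the seed, bases 2 to 8, which chooses the targets. The star names were matched to the current arm names by hand. A sequence was found for 15 of the 16 detected stars looked up, 7 of them from the 5′ arm and 8 from the 3′ arm, with lengths of 21 to 22 bases. They held 14 different seeds, and no star shown shares its seed with its own main arm.
let-7d*: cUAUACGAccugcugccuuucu
let-7d: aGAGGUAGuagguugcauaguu
miR-193*: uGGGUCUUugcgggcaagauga
miR-193: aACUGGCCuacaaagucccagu
miR-378*: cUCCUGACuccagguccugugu
miR-378: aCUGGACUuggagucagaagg
miR-126*: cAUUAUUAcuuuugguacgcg
miR-126: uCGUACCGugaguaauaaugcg
let-7b*: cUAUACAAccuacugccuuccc
miR-30c-1*: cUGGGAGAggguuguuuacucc
miR-30c-2*: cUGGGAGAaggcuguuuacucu

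The let-7d* arm lies at chr17:16322327-16322348 on the plus strand and miR-193* at chr10:65170336-65170357 on the plus strand. The miR-378* arm lies at chr18:57128962-57128983 on the minus strand, within the span of Ppargc1b, a coactivator gene of mitochondrial metabolism. The miR-126* arm lies at chr3:29813182-29813202 on the plus strand, within the span of Egfl7, a gene of blood vessel endothelium. The table used gives no exons, so exonic and intronic positions were not told apart. miR-30c-1* and miR-30c-2* share the seed UGGGAGA and come from hairpins with the same main arm, miR-30c. Their probes may therefore respond to both RNAs.

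A probe counted as detected where over 50% of its spots were marked well above background, and a miRNA where any of its probes was. Arrays detected 6 to 15 of the 58 star miRNAs and 90 to 141 miRNAs of all kinds. The hepatocyte miRNAs miR-122, miR-192 and miR-194 were detected on all 38 arrays, whereas the neuron miRNAs miR-124 and miR-9 and the muscle miRNAs miR-1, miR-133a and miR-208 were detected on 0 arrays and miR-206 on 1. Levels are log2 of a probe's signal over its array's 75th percentile, with the brightest probe standing for a miRNA and a floor at -5.49, which was 16.7 signal units on the median array. An array can therefore detect a miRNA whose level still sits at the floor. Some of the 38 arrays stood apart. Control replicate 1 was low for several star miRNAs. 2-AAF replicate 5 was the dimmest array, with a 75th percentile of 424 signal units against 486 to 1086 elsewhere. It had high scaled values for dim probes. MON replicate 3 detected the fewest probes (16.6%), and 5.83% of its spots were outliers. DETU replicate 3 had the most outlier spots (6.76%).

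Most star miRNAs gave no signal above background in these livers. Of the 58, 41 were detected on no array and 17 (29.3%) on at least 1, while 143 of the 292 other miRNAs (49.0%) were. An undetected star does not mean an absent hairpin. Of the 57 stars whose main arm is also on the array, 29 had a main arm detected on all 38 arrays, and for 19 of these 29 the star was detected on none. They were miR-21*, from the hairpin of an miRNA common in injured and cancerous tissue, let-7e*, let-7i*, miR-20a*, miR-25*, miR-23a*, miR-24-1*, miR-24-2*, miR-27a*, miR-26b*, miR-28*, miR-29a*, miR-29b-1*, miR-29b-2*, miR-30d*, miR-99a*, miR-101a*, miR-151* and miR-322*. A further 17 undetected stars, among them miR-124* and miR-9* of the brain and miR-34c*, had a main arm that was undetected as well. Another 4 (miR-106b*, miR-181a*, miR-196a* and miR-872*) had a main arm detected on some arrays, and miR-125b* had none of that name on the array. Detection depends on each probe's affinity, so these counts do not rank the RNAs by amount.

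Among the 17 detected stars, 4 were present on all 38 arrays. These were miR-22*, miR-30a*, miR-30e* and miR-140*. miR-126* was detected on 37 arrays, miR-378* on 36 and miR-193* on 34. The next group was intermittent, with let-7b* and miR-1* on 20 arrays each, miR-29c* on 19, miR-7a* on 16 and let-7d* on 7. The 12 named so far were tested, because each was detected on every array of at least 1 diet group (20.7% of the stars, against 40.1% of the other miRNAs). For 5 of the 12 that was 1 group only, namely CA for let-7d*, miR-29c* and miR-7a*, and 2-AAF for let-7b* and miR-1*. A star that entered through 1 treated group was bound to be higher there by detection, so the number tested carries no evidence of a change.

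**Figure D1:**
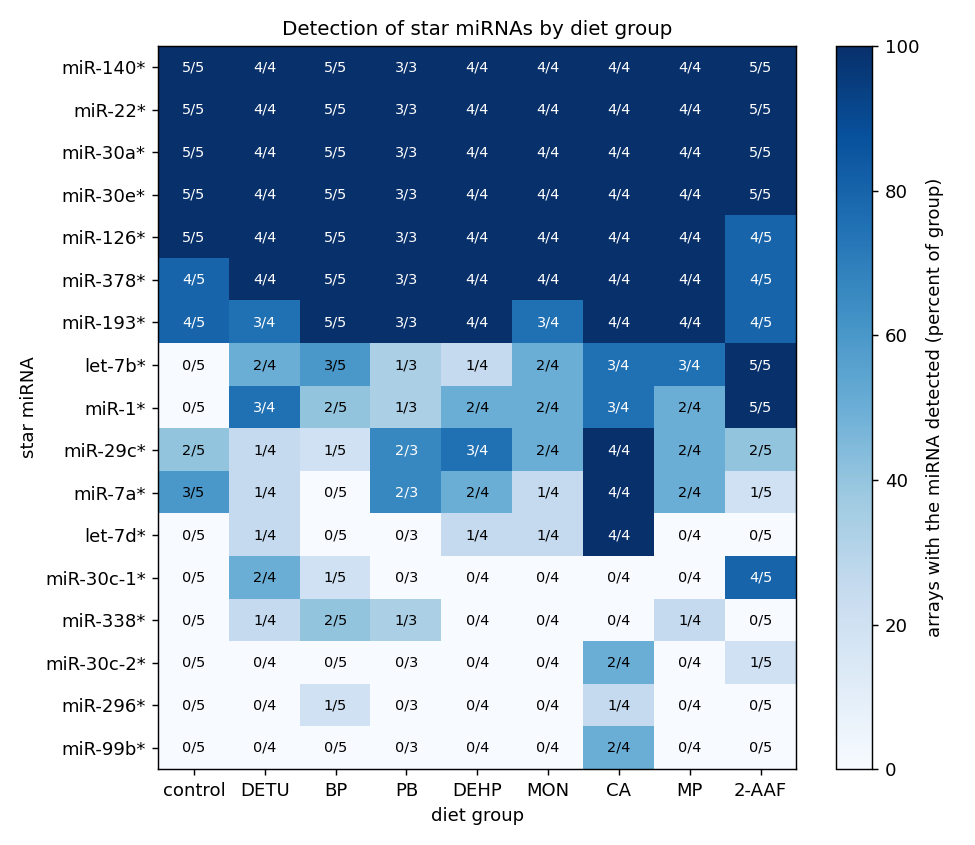
Detection of the 17 star miRNAs seen on at least 1 array (rows) in the 9 diet groups (columns). Colour gives the percent of a group's arrays with the miRNA detected and the text gives the number of arrays. The 4 top rows are detected throughout, and let-7d* is detected on 4 of 4 CA arrays and 0 of 5 control arrays.

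The other 5 detected stars were too sparse for the test. miR-30c-1* was detected on 7 arrays, 4 of 5 with 2-AAF, 2 of 4 with DETU and 1 of 5 with BP, and on 0 of 5 control arrays. Its levels with 2-AAF were -5.49 (undetected), -5.03, -4.78, -5.49 and -3.83, and the highest was that of the dim replicate 5. With the filter dropped, its difference to control was log2 0.57 ± 0.20 (SE), which did not pass (limma, adjusted p = 0.0711 over 173 miRNAs). Without replicate 5 the means of the 2 groups differed by 0.30. miR-338* was detected on 5 arrays (2 BP, 1 DETU, 1 PB, 1 MP), miR-30c-2* on 3 (2 CA, 1 2-AAF), miR-296* on 2 (1 BP, 1 CA) and miR-99b* on 2, both CA. None of these 5 was detected in a control animal.

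The mean number of star miRNAs detected was highest in CA livers. Their 4 arrays detected 10, 15, 14 and 12 of them, a mean of 12.75 ± 2.22 (SD, n = 4), against 6, 7, 7, 9 and 9 on the control arrays (7.6 ± 1.34, n = 5). The 2 groups did not overlap. The exact two-sided permutation p of 0.0159 is the smallest that 4 against 5 animals allow, and it came to 0.127 after adjustment over the 8 comparisons, so the difference did not pass. The other 7 diets had means from 8.75 (MON) to 10 (2-AAF) with adjusted exact permutation p values from 0.444 to 0.508. Non-star miRNAs numbered 117.75 ± 4.35 per CA array and 108.2 ± 11.9 per control array (exact permutation p = 0.222). The CA arrays were also bright, with a 75th percentile of 801 to 1068 signal units against 486 to 1060 in the control group, and the part of brightness in the star count was not tested.

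**Figure D2:**
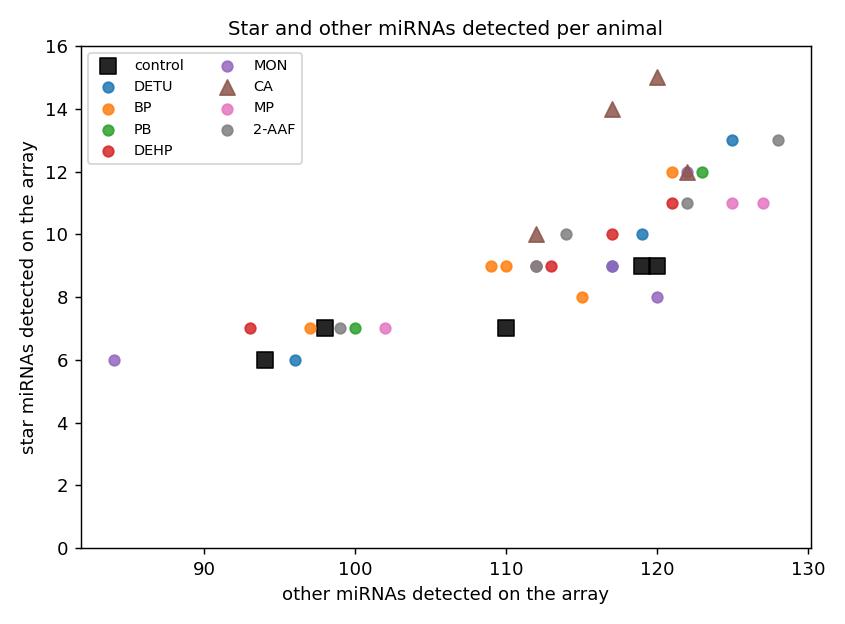
Number of star miRNAs (y) against the number of other miRNAs (x) detected on each of the 38 arrays, 1 point per animal. The 4 CA arrays (triangles) lie at 10 to 15 star miRNAs and the 5 control arrays (squares) at 6 to 9, and arrays that detect more miRNAs of other kinds tend to detect more stars.

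The 4 stars seen on all arrays gave no call across the diets with the scaling above. The range of their group means is set beside the SD between animals as a description only. miR-22*, the 5′ arm of the miR-22 hairpin, had group means from -2.94 (MP) to -2.55 (PB), a range of 0.39 against a pooled SD within groups of 0.31. Its control levels were -4.05, -2.50, -2.82, -2.54 and -2.69, of which the first, that of control replicate 1, lay apart. Group means of miR-140*, the 3′ arm of a hairpin within the span of Wwp2, ran from -3.06 (MON) to -2.80 (PB), with a pooled SD of 0.19. For miR-30a* they ran from -3.95 (DEHP) to -3.71 (MON), with a pooled SD of 0.23. For miR-30e*, whose hairpin lies within the span of Nfyc, they ran from -3.66 (MP) to -3.30 (MON), with a pooled SD of 0.28. Neither the F test over the 8 diets nor any single comparison called these 4 (limma, adjusted p of the F test from 0.552 to 0.797).

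The F test called 0 of the 12 tested stars, against 45% of all 129 miRNAs tested, and 1 star had an unadjusted p under 0.05. That one was miR-378* (F = 2.46, adjusted p = 0.0653), followed by miR-126* (adjusted p = 0.112). Against control, 1 of the 96 star comparisons was called, with CA, and 5 had an unadjusted p under 0.05. The share of all 129 miRNAs called was 0% with DETU, 3.88% with PB and with MON, 4.65% with BP and with MP, 11.6% with 2-AAF, 14.7% with DEHP and 29.5% with CA, and in each diet but CA 0 of 12 stars were called. The median difference over the 12 stars was between -0.024 (MON) and 0.16 (PB), and over all 129 miRNAs between -0.040 (BP) and 0.0996 (CA). The F test's count varied with the processing. It called 3 stars with all probes in the scaling factor, 5 with quantile normalization and 3 with the authors' deposited table, and miR-126* and miR-378* were called in each of these 3. The share of all miRNAs called in those settings is not given, so the counts do not set stars apart from other miRNAs.

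**Figure D3:**
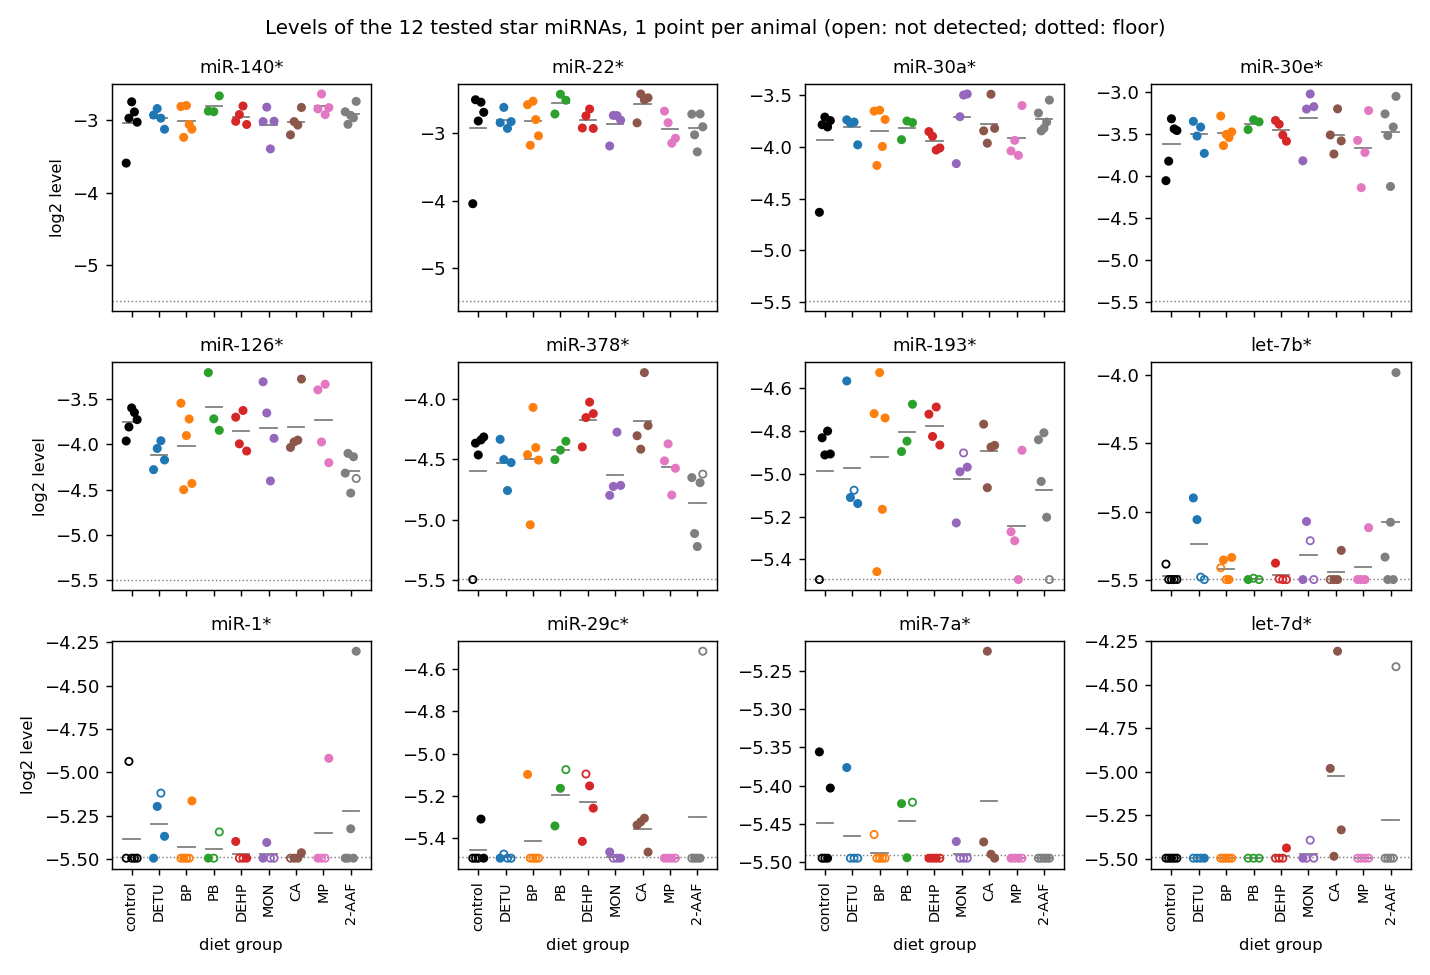
Levels of the 12 tested star miRNAs (log2 over the array's 75th percentile) in the 9 diet groups, 1 point per animal. Open points are undetected, grey bars are group means and the dotted line is the floor at -5.49. The 4 stars of the upper row lie well above the floor, let-7d* leaves it on the 4 CA arrays, and miR-126* lies lower with 2-AAF (-4.54 to -4.10) than in control animals (-3.96 to -3.60).

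let-7d*, the partner of the growth-restraining miRNA let-7d, was the one star called against control. It was undetected and at the floor in all 5 control animals. In CA livers it was detected in 4 of 4 animals, at -4.98, -5.48, -4.31 and -5.33. Replicate 3 was the highest, and replicate 2 lay barely off the floor. The difference was log2 0.47 ± 0.16 (SE, adjusted p = 0.0322), and against the dimmest detected signal of the control arrays CA was at least 1.34-fold higher. Since let-7d* entered the test through its detection in CA alone, this p is not independent of the filter. The call for CA was 1 of 12 stars, beside 29.5% of all miRNAs tested (20.2% called higher).

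The let-7d* call held in 6 of 11 other settings, among them quantile normalization (0.53), scaling over all probes (0.62), a lower floor (0.79) and the authors' deposited table (1.39). It was lost without CA replicate 3 (0.23, adjusted p = 0.333) or replicate 1 (0.45, adjusted p = 0.0628), with slide as a block (0.40, adjusted p = 0.0653) and in a fit of these 2 groups alone (adjusted p = 0.151). The total gene signal, which the authors' deposited table mostly matched up to a shift per array, did not call it either. Within slide 1 the difference was 0.51 (1 CA against 2 control arrays) and within slide 4 it was 0.087 (2 against 1). Only 1 of its 4 probes was detected on all CA arrays. A second probe, detected on 3, differed by 0.18, another by 0.020, and the last stayed at the floor, so the mean of the probes gave 0.17 (adjusted p = 0.229). With normexp background correction the sign turned (-0.29, adjusted p = 0.494), where the median of all miRNAs stood at -0.30. The main arm let-7d differed by 0.24 ± 0.13 in CA livers (adjusted p = 0.177). Elsewhere let-7d* was detected on 1 array each with DETU, DEHP and MON, while 2-AAF replicate 5 had it undetected at -4.40.

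miR-126*, paired with the endothelial miR-126, was lower with 2-AAF without passing the test. Its control levels were -3.96, -3.81, -3.60, -3.65 and -3.73. With 2-AAF they were -4.32, -4.10, -4.54, -4.14 and -4.38, the last of them undetected. Every 2-AAF animal lay under every control animal. The difference was log2 -0.54 ± 0.20 (adjusted p = 0.0648), and -0.52 (adjusted p = 0.126) without the dim replicate 5. With 2-AAF 2 stars, miR-126* and let-7b*, had an unadjusted p under 0.05. miR-126* was called with all probes in the scaling factor (-0.92, adjusted p = 0.00301), where the median of all miRNAs moved from -0.0043 to -0.33. Quantile normalization (-0.85), the authors' deposited table (-0.81), the total gene signal (-0.62) and a fit of these 2 groups alone called it as well. That made 5 of 11 other settings, over which the difference ran from -0.92 to -0.25 (limma, adjusted p up to 0.998). Within slide 3, the one slide with both groups, it differed by -0.37 (1 against 2 arrays).

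The main arm miR-126 was close in both groups. It was at 0.60, 0.78, 0.81, 0.59 and 0.71 in control animals and at 0.51, 0.65, 0.37, 0.70 and 0.68 with 2-AAF, and these ranges overlapped. The difference was -0.12 ± 0.11 (adjusted p = 0.567). The arm difference, star minus main, was -4.45 ± 0.14 (SD, n = 5) in control animals and -4.88 ± 0.12 (n = 5) with 2-AAF, a change of -0.43 ± 0.16 (SE) that did not pass (adjusted p = 0.0751, and 0.383 without replicate 5). The endothelial list held only these 2 miRNAs, and its summed level was 0.66 to 0.88 in control and 0.42 to 0.75 in 2-AAF animals. The signals were added before the log2 scale, so this sum is nearly all miR-126 and no separate measure of endothelial content. In whole liver fewer cells of a type and less RNA per cell cannot be told apart. With DETU miR-126* was at -4.28, -4.05, -3.96 and -4.17 (difference -0.36 ± 0.21, adjusted p = 0.95).

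miR-378* had its highest means with DEHP and CA. Control levels were -5.49 (undetected), -4.37, -4.46, -4.34 and -4.32, so replicate 1 alone was at the floor. With DEHP they were -4.40, -4.16, -4.03 and -4.12, a difference of log2 0.42 ± 0.19 (adjusted p = 0.151). With CA they were -4.31, -4.42, -3.78 and -4.22, a difference of 0.41 ± 0.19 (adjusted p = 0.105), which was called with the mean of the probes (0.44, adjusted p = 0.0430), the total gene signal (0.47, adjusted p = 0.0360) and slide as a block (0.57, adjusted p = 0.0232). Both groups overlapped with control. Without control replicate 1 the differences were 0.20 (adjusted p = 0.473) and 0.19 (adjusted p = 0.397). With 2-AAF the star was at -4.65, -5.11, -5.22, -4.69 and -4.62 (difference -0.26), which did not pass. It was called with all probes in the scaling factor (-0.56, adjusted p = 0.0489) and without control replicate 1 (-0.49, adjusted p = 0.0350), when every 2-AAF animal lay under every remaining control animal.

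let-7b* and miR-1* were each detected in 0 of 5 control and 5 of 5 2-AAF animals. Both entered the test through 2-AAF alone, so full detection there was a condition of the test. let-7b* was at -5.33, -5.49, -5.08, -5.49 and -3.98 with 2-AAF. The last value is that of the dim replicate 5. The difference was log2 0.40 ± 0.17 (adjusted p = 0.124), and 0.12 (adjusted p = 0.567) without that array. miR-1* was at -5.49, -5.49, -5.33, -5.49 and -4.30, with 3 of 5 at the floor and replicate 5 again the highest. Without that array its 2-AAF mean was -5.45, under the control mean of -5.38 (difference -0.069, adjusted p = 0.789), so no direction is given. Its main arm miR-1, the muscle miRNA, was detected on no array, so of that hairpin only the star was detected. The level of miR-1* sat at the floor on 26 of the 38 arrays, and whether its probe's signal was specific was not tested.

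miR-29c*, the partner of the collagen-repressing miR-29c, was detected on 2 of 5 control, 1 of 4 DETU, 1 of 5 BP, 2 of 3 PB, 3 of 4 DEHP, 2 of 4 MON, 4 of 4 CA, 2 of 4 MP and 2 of 5 2-AAF arrays. Control levels were -5.49, -5.49, -5.49, -5.31 and -5.49. With PB they were -5.34, -5.16 and -5.08, with DEHP -5.42, -5.10, -5.15 and -5.26, and with CA -5.34, -5.32, -5.31 and -5.47. These groups overlapped with control, and the differences were 0.26 ± 0.14 (adjusted p = 0.492), 0.23 ± 0.13 (adjusted p = 0.238) and 0.0996 ± 0.13 (adjusted p = 0.569). The other group means lay between -5.49 (MP) and -5.30 (2-AAF), and no difference passed. Its arm difference was -5.93 ± 0.41 (SD, n = 5) in control and -5.59 ± 0.41 (n = 4) in CA animals. That change of 0.34 ± 0.21 (SE) did not pass (adjusted p = 0.283). Most of it was the main arm, as miR-29c differed by -0.24 (limma, adjusted p = 0.308) and the star by 0.0996. The change was called with the total gene signal (0.62, adjusted p = 0.0132) and with the authors' deposited table (0.73, adjusted p = 0.00475). miR-29c* entered the test through its detection in CA alone, so these p values are not independent of the filter. miR-7a* was detected on 3 of 5 control and 4 of 4 CA arrays, with all group means between -5.49 and -5.42. miR-193* had means from -5.24 (MP) to -4.77 (DEHP) with a pooled SD of 0.25, and no difference passed for it either.

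In CA livers the main arm of the miR-193 hairpin fell while no change of its star passed. The main arm was at -2.36, -2.04, -2.82, -3.15 and -2.33 in control animals and at -5.49, -4.91, -5.26 and -3.17 with CA, so that 3 of the 4 CA animals lay at or near the floor and replicate 4 lay near the lowest control value. The main arm fell by 2.17 ± 0.38 (SE, log2, adjusted p = 0.000104). The star was at -5.49 (undetected), -4.83, -4.91, -4.80 and -4.91 in control animals and at -4.77, -5.06, -4.87 and -4.87 with CA. Those groups overlapped, and the star differed by 0.095 ± 0.17 (adjusted p = 0.675). The star lay within about 1 log2 unit of the floor in every group, so a fall of it by the size seen in the main arm could not have been measured.

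The difference between the arms compares 2 probes and is no ratio of amounts, but its change between groups uses the same probes throughout. For miR-193* minus miR-193 it was -3.13, -2.79, -2.09, -1.65 and -2.58 in control animals (mean -2.45 ± 0.59 SD, n = 5) and 0.73, -0.15, 0.38 and -1.70 with CA (mean -0.18 ± 1.07, n = 4). The ranges overlapped through CA replicate 4. The change was 2.26 ± 0.42 (SE, adjusted p = 7.56e-05 over 13 arm pairs). It was 2.59 within slide 1 (1 against 2 arrays) and 2.21 within slide 4 (2 against 1), and 2.77 without CA replicate 4. Since the star had little room above the floor to fall, this change largely restates the fall of the main arm and is no separate result. It was called in each of the 11 other settings that could test it, from 0.81 with normexp to 2.50 with the authors' deposited table.

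With MON the arm difference of miR-193 was -2.07, -2.20, 0.59 and -1.64. Replicate 3 alone was high, because its main arm was undetected at the floor. That array also detected the fewest probes of the 38 (16.6%). The change of 1.12 ± 0.42 did not pass (adjusted p = 0.160). With DEHP all 4 animals lay together, at -1.52, -1.65, -1.51 and -1.46, just above the highest control animal. The change of 0.91 ± 0.42 did not pass (adjusted p = 0.335), and the main arm differed by -0.70 ± 0.38 (adjusted p = 0.228).

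**Figure D4:**
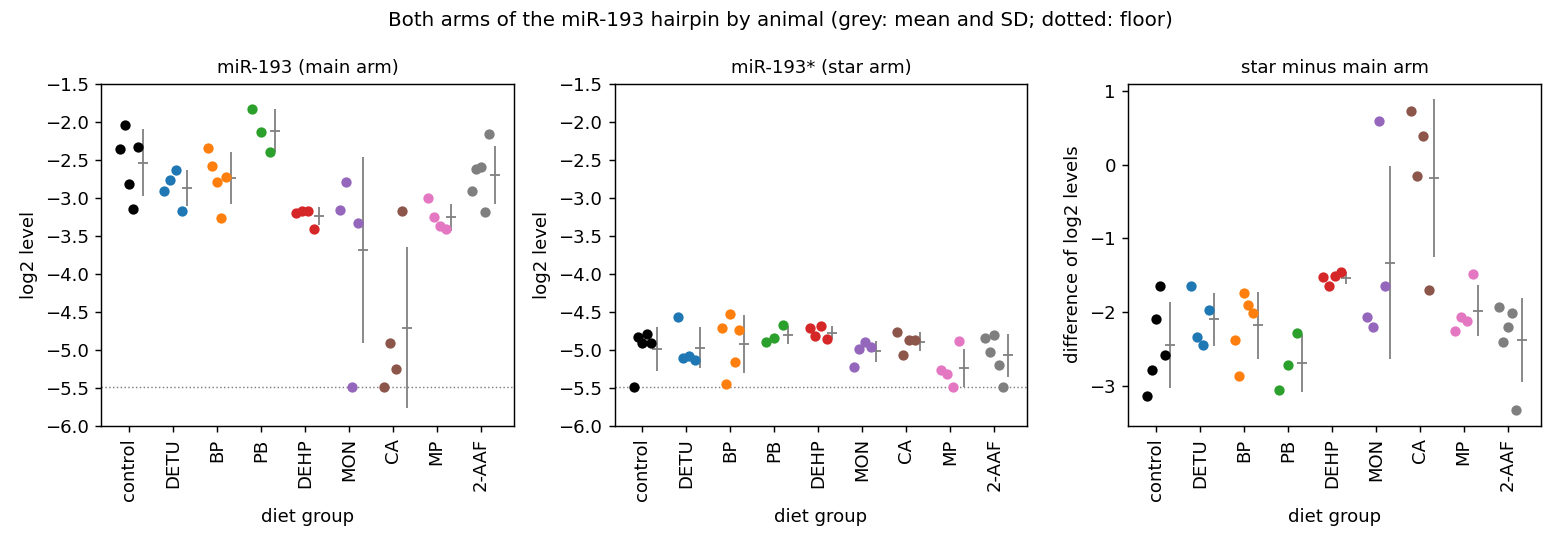
Levels of miR-193 (left), miR-193* (middle) and their difference (right), all in log2 units, in the 9 diet groups with 1 point per animal, group mean and SD in grey, and the floor dotted. The main arm lies at -5.49 to -4.91 in 3 of 4 CA animals while the star arm stays at -5.06 to -4.77.

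Over the 11 star pairs tested, 2 changes were called with CA, beside 23.1% of the 13 arm pairs, and 0 with each of the other 7 diets, where 0% of the pairs were called. The second CA call was miR-378* minus miR-378. It was at -4.62, -4.11, -4.05, -3.70 and -3.75 in control animals and at -3.45, -3.53, -3.34 and -3.54 with CA, where every animal lay above every control animal. The change was 0.58 ± 0.21 (adjusted p = 0.0390). It came from a star somewhat higher (0.41) and a main arm somewhat lower (-0.17, adjusted p = 0.407), neither of which passed alone. The call was lost without control replicate 1 (0.44, adjusted p = 0.144), 2 or 3, without CA replicate 1, 2 or 3 (adjusted p up to 0.169), and with normexp, where the sign turned (-0.10). Within slides 1 and 4 the change was 0.42 and 1.08, the latter against control replicate 1 alone.

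**Figure D5:**
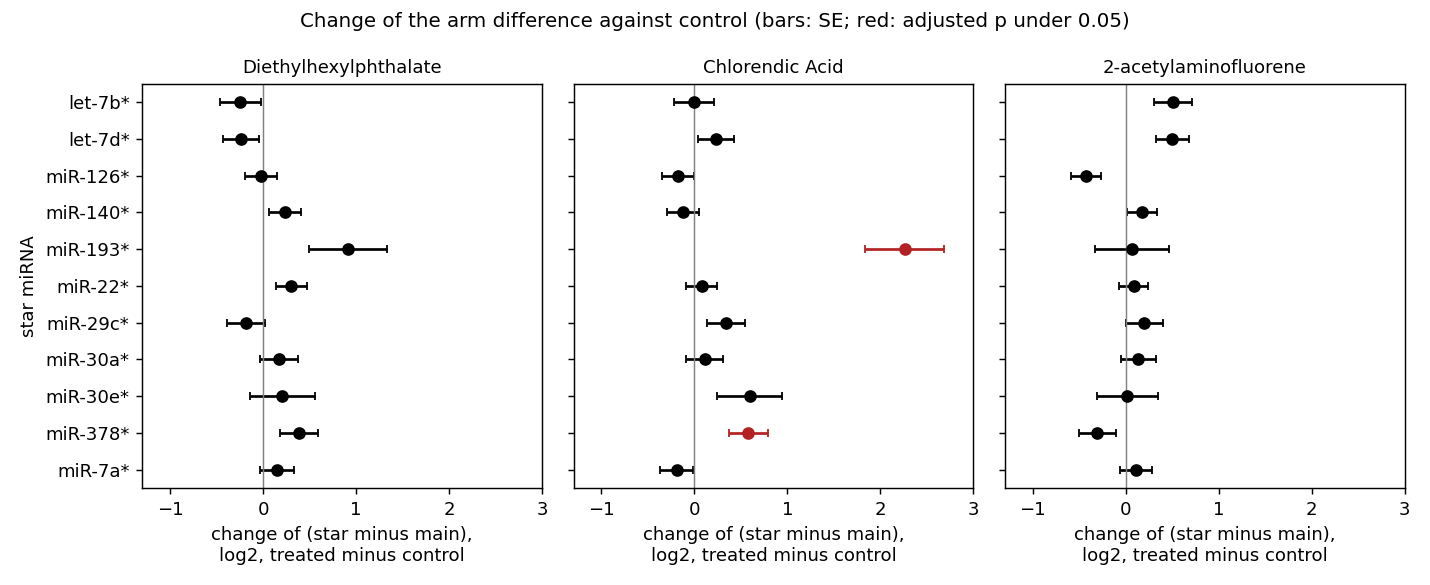
Change of the arm difference (star minus main arm, log2, treated minus control) for the 11 star pairs with DEHP, CA and 2-AAF, with SE bars and changes of adjusted p under 0.05 in red. miR-193* (2.26) and miR-378* (0.58) with CA are the red points, and miR-126* lies at -0.43 with 2-AAF.

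With 2-AAF the arm differences of let-7b* (0.51 ± 0.21, adjusted p = 0.0812) and let-7d* (0.50 ± 0.18, adjusted p = 0.0751) differed in the opposite direction from that of miR-126*, and none passed. Without the dim replicate 5, whose star levels lay at -3.98 and -4.40, the changes were 0.20 (adjusted p = 0.612) for let-7b* and 0.29 (adjusted p = 0.477) for let-7d*. let-7d* itself was detected on 0 of 5 control and 0 of 5 2-AAF arrays, and with 2-AAF only replicate 5 lay above the floor. Its change therefore came from that undetected value and from the main arm, which was lower (-0.28, adjusted p = 0.133). In replicate 3 the star was at the floor and the main arm at -0.27, the lowest of the 2-AAF group. The arm difference there was -5.22, against -6.23 to -6.01 in control animals. No change was called for the 4 hairpins whose stars were seen on all arrays. For miR-30a* minus miR-30a the group means ran from -2.91 (PB) to -2.64 (BP), and for miR-22* minus miR-22 from -5.16 (MON) to -4.66 (DEHP). For miR-30e* minus miR-30e they ran from -0.91 (MP) to -0.16 (CA), and the change with CA was 0.59 ± 0.35 (SE, adjusted p = 0.283). For miR-140* minus miR-140 they ran from 1.44 (CA) to 1.86 (BP), the one pair with means above 0 in every group.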

How the data were processed

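Liver RNA of 38 rats was hybridized to Agilent 1-colour miRNA arrays, and the deposited files give the intensity of each spot on a linear scale. Per the file headers, the scans were read by Feature Extraction 10.5.1.1. The authors' deposited table holds log2 values of 167 miRNAs, 20 of them stars. For 99.43% of 6293 values it matched the log2 total gene signal, shifted by a fixed amount on each array, within 0.01. How that amount was chosen stays unknown, and its column medians were 0.0162 to 0.337.

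Outlier spots (2.17% to 6.76% of 7000 per array) were left out and spots averaged over 938 probes. Each array was scaled to its 75th percentile, taken from the 137 probes that every array detected, then floored at the 5th percentile of detected values and put on the log2 scale. No spot was saturated and no 2 arrays were identical. Limma 3.58.1 in R 4.3.3 was fitted to all 38 arrays, with Benjamini-Hochberg adjustment over the 129 miRNAs tested, or over 13 arm pairs (11 of stars, 2 of miRNAs named by 5p and 3p), and a threshold of 0.05. The fit of levels was tested on simulated data of miRNAs detected on all arrays, without a floor. That test did not cover stars near the floor or arm differences. Numbers of stars detected were compared by an exact two-sided permutation test (scipy 1.17.1). Where a group was undetected on all its arrays, the fold is a bound, the bright group's mean against each dim array's lowest detected signal or the probe's own, whichever was higher.

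Stars tested were all described, and those called, or named as examples in choosing the members, were given in more detail. The members and lists were chosen with earlier results of these data known. Alternatives were other scaling, background correction, probe summary, floor, filter, blocks and fitted samples, and each array left out. The number of arrays limits the precision. Animals were housed 5 to a cage per the labels, and cages were not given, so p-values measure the spread between these animals only. Of 6 slides, control animals occupy 1, 3 and 4, and MON and MP share none with control.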

Additional observations from a re-analysis of the deposited data

Results flagged for a closer look

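Among 112 sets of 4 or 5 animals (a level or an arm difference in 1 diet group), 13 held 1 animal farther from the others than a test for a single stray value allows. Chance alone flags about 1 in 20 such sets, and the sets share arrays.

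Control replicate 1 was low for miR-22* (-4.05, the others -2.82 to -2.50) and miR-30a* (-4.63, the others -3.81 to -3.71). It was also undetected at the floor (-5.49) for miR-378* and miR-193*, which the 13 do not include. 2-AAF replicate 5, the dimmest array, was high for let-7b* (-3.98, the others -5.49 to -5.08) and miR-1* (-4.30, the others -5.49 to -5.33), and its arm difference of let-7b* was -4.43 (the others -6.19 to -5.70). In CA livers replicate 4 was high for miR-126* (-3.28, the others -4.03 to -3.95) and replicate 2 for miR-7a* (-5.22, the others -5.49 to -5.47).

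MON replicate 1 was low for miR-22* (-3.19, the others -2.81 to -2.74), and MON replicate 3, with a dim array of 541 signal units at its 75th percentile, was high for miR-378* (-4.28, the others -4.80 to -4.72). DETU replicate 4 was low for miR-30a* (-3.98, the others -3.77 to -3.74). The arm difference of miR-30a* was low in DEHP replicate 3 (-3.02, the others -2.55 to -2.52) and high in MP replicate 4 (-2.16, the others -3.13 to -3.07), where that of miR-30e* was high as well (0.036, the others -1.27 to -1.20). The causes were not tested.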

How the results depend on the processing

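Group sizes of 3 to 5 and signals near background limit these results. With CA the number of stars called (1) was 0 with normexp, among miRNAs detected on all arrays and in a fit of 2 groups. It was 2 with quantile normalization (let-7d*, miR-22*). With the mean of the probes, total gene signal or slide as a block it stayed 1, but the star called was miR-378* in place of let-7d*. With 2-AAF it was 2 rather than 0 with scaling over all probes (miR-126*, miR-378*) and with the authors' table (miR-126*, miR-7a*), and 1 with quantile normalization, total gene signal or 2 groups. The F test called 3 stars with scaling over all probes, total gene signal or the authors' table, 5 with quantile normalization, and 1 with the mean of the probes or a lower floor. Shares of all miRNAs called in these settings are not given, so the counts do not set stars apart from other miRNAs.

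Arm differences called with CA (2) numbered 1 with normexp, quantile normalization or 2 groups, and 4 with the authors' table (also let-7d* and miR-29c*). The total gene signal called miR-29c* besides the 2. Among miRNAs detected on all arrays they numbered 0, where miR-193* and miR-378* were not fitted. With no filter up to 57 star pairs could be fitted, rather than 11. The calls then numbered 14 with CA, 2 with DEHP and 2-AAF each, and 1 with BP, MON and MP each. The share of all pairs called there is not given, so these counts cannot be compared with those above. There most added stars sat at the floor, so their difference is the main arm with its sign turned. Quantile normalization called 1 with BP (miR-140*) and 1 with 2-AAF (miR-126*, -0.83), scaling over all probes 1 with 2-AAF (let-7d*) and the total gene signal 1 with MON (miR-193*).

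Normexp turned the sign for let-7d* (-0.29), miR-378* (-0.28), miR-22* (-0.014) and the arm difference of miR-378* (-0.10) with CA, and for miR-378* with DEHP (-0.14). It moved the median of all miRNAs by -0.40 with CA and -0.22 with DEHP. The cause was not tested.

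Leaving out 1 array gave 0 to 1 star calls with CA, 0 to 1 with 2-AAF and 0 to 2 by the F test, and 1 to 4 arm calls with CA, 0 to 2 with 2-AAF and 0 to 1 with MON. The difference in stars detected ranged from 4.4 to 6.07 with CA. Of 660 values over all alternatives, 582 kept their side of the threshold or stayed near the value given, 49 moved beyond that, 14 lost and 10 gained a call, and 5 turned sign.

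Replicate numbers were not used to pair the animals. Of 33 same-numbered pairs with control, 15 had correlated deviations over 0.1 (-0.392 to 0.487). Differently numbered pairs were not set beside them, so these values do not settle whether the numbers pair animals. With a replicate block CA kept 1 star call (let-7d*, 0.54, adjusted p = 0.0101) and 2 arm calls (miR-193* 2.18, adjusted p = 0.000158; miR-378* 0.58, adjusted p = 0.0499), miR-126* with 2-AAF was at -0.54 (adjusted p = 0.0758), and the other 7 diets and the F test had 0 star calls.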
